A study of Mus musculus with 6 samples.

Results

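The genes described here are the mouse Wnt and Fgf ligands and their receptors, measured in sorted epithelial cells of the thymic medulla and of the thyroid. They were taken by gene name from the array files: every non-control probe named Wnt, Fzd, Fgf or Fgfr followed by a number. This gave 56 of 27593 genes on the array, read by 90 of 41174 probes: 19 Wnt ligand genes, 10 Fzd (frizzled) receptor genes, 21 Fgf genes and 6 names that begin with Fgfr. Of the 6, Fgfr1 to Fgfr4 are the receptor tyrosine kinases, while Fgfr1op (now named Cep43) and Fgfr1op2 were named after fusion partners of a receptor and are not receptors themselves. Fgf4 was not measured under its name, and 2 probes with clone names that resolve to Fgf12 and Fzd3 were kept apart.

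Both groups came from mice of the C57BL/6 background, with no transgene or treatment named. ThymusEC samples are thymic epithelial cells of the medulla, sorted as live (Fluorogold-negative) cells that carry the epithelial surface protein Epcam, bind the lectin UEA1 and lack CD45, the common protein of blood cells. ThyroidEC samples are thyroid cells sorted as live, Epcam-positive and CD45-negative, with no lectin in the gate. Each group has 3 arrays, described by the submitters as independent replicates. Organs were pooled: 6, 6 and 2 thymi for ThymusEC replicates 1, 2 and 3, and 20 thyroids for each ThyroidEC replicate. Age and sex are not given in the sources used here.

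Wnt proteins are lipid-modified secreted signals that bind a Fzd receptor together with Lrp5 or Lrp6 and, in the best known branch, keep β-catenin from being degraded so that it can act with TCF/LEF transcription factors. Most Fgf proteins are secreted and signal through Fgfr kinases with heparan sulfate as a cofactor, an endocrine branch uses Klotho proteins instead, and the branch of Fgf11 to Fgf14 stays inside the cell. In the thymus, Wnt signals are known to act on the epithelial factor Foxn1, and Fgf7 and Fgf10 from mesenchyme are known to drive epithelial growth through the epithelial form of Fgfr2. Loss of Fgf10 is also known to prevent the thyroid from forming.

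All levels below are log2 of the processed signal minus the array's 75th percentile, so that 0 is the brightness below which 75% of probes lie, and all differences are ThymusEC minus ThyroidEC on this scale. Levels of different genes come from different probes and are not compared with each other. The signal at the 75th percentile was 676 to 772 on the ThymusEC arrays and 476 to 805 on the ThyroidEC arrays, and no spot was saturated. Probes well above background, the scanner software's flag for a measured spot, made up 78.4% to 81.0% of all probes on the ThymusEC arrays and 65.3% to 72.7% on the ThyroidEC arrays. All ThymusEC arrays and ThyroidEC replicate 1 lay on 1 slide and ThyroidEC replicates 2 and 3 on another, so the main counts are also given with the slide as a block and within slide 1. Of the defining genes of other cells, 13 of 13 endothelial genes were higher in ThyroidEC, with the log2 of their mean level at -0.71 to -0.46 in ThymusEC, against 5.96 to 6.49 in ThyroidEC. Myeloid and dendritic genes went the opposite way, with 9 of 9 tested higher in ThymusEC at 3.42 to 3.53, against -2.54 to -1.64 in ThyroidEC, as did 7 of 7 B-cell genes at -0.16 to 0.01 in ThymusEC, against -2.32 to -1.46 in ThyroidEC, and 9 of 11 thymocyte genes at -2.29 to -1.45 in ThymusEC, against -2.61 to -2.48 in ThyroidEC. Of the genes of fibroblasts and pericytes, 5 of 14 were higher in ThymusEC and 1 in ThyroidEC, at 1.82 to 2.20 in ThymusEC and 0.95 to 1.92 in ThyroidEC. Of the labelled cells' own genes, 10 of 11 medullary genes were higher in ThymusEC and 10 of 12 follicular genes higher in ThyroidEC. Genes of the thymic cortex were higher in ThymusEC in 6 of 8 cases, at 5.37 to 5.74 in ThymusEC, against 4.04 to 4.21 in ThyroidEC, and those of thyroid C cells were split, with 3 of 7 higher in ThymusEC and 4 in ThyroidEC. General epithelial genes were higher in ThymusEC in 6 of 8 cases, at 6.06 to 6.27 in ThymusEC, against 4.66 to 4.97 in ThyroidEC. Each list's mean was taken before the log, so its brightest probes weigh most. In ThymusEC, Lyz2 had the brightest myeloid probe at a mean of 6.59, with Cd14 next at 1.42. In ThyroidEC, Ctsl (6.42) and Krt8 (5.59) had the brightest cortical probes, while Foxn1 read -3.42 and Psmb11 -4.48. The part of the genes of all these lists in the results below was not tested. In such bulk samples, fewer cells of a type and less RNA per cell cannot be told apart.

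The families differed in how many genes could be measured. Of the 19 Wnt genes, 16 had a probe well above background on all 3 ThymusEC arrays and 8 on all 3 ThyroidEC arrays. Of the 21 Fgf genes, 18 did in ThymusEC and 8 in ThyroidEC. The receptors were measured in both: 10 of 10 Fzd genes in ThymusEC and 9 in ThyroidEC, and 6 of 6 Fgfr names in each group. Over the 56 names this made 50 (89.3%) in ThymusEC and 31 (55.4%) in ThyroidEC, where all genes of the array gave 76.2% and 63.2%. The list thus held 19 genes measured in ThymusEC and not in ThyroidEC, and 0 the other way round. Of all 27593 genes, 3962 were measured in ThymusEC alone and 359 in ThyroidEC alone, so the second kind was rare on the whole array. The 6 names measured in neither group were Fgf6, Fgf17, Fgf22, Wnt5a, Wnt8a and Wnt16, and they were not tested. Wnt5a came closest, with 2 ThymusEC arrays and 1 ThyroidEC array well above background.

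The groups were compared with limma, and a gene was called at an adjusted p (Benjamini-Hochberg, over all 21392 genes tested) under 0.05. Of the 50 genes tested, 31 were called higher in ThymusEC, where 39.2% of all genes tested were, and 6 higher in ThyroidEC, where 30.6% of all genes were (69.8% in either direction). With the slide as a block the counts were 30 and 5, and within slide 1 they were 33 and 6. Among the Wnt genes 14 of 16 were higher in ThymusEC and 0 in ThyroidEC, or 1 (Wnt5b) at an unadjusted p under 0.05 and 2 with median centring or quantile normalization. Their median difference of 2.73 was 2.21 with median centring, 2.26 with quantile normalization and 0.41 with normexp background correction. Among the Fgf genes 12 of 18 were higher in ThymusEC and 1 in ThyroidEC, with a median of 2.15, or 1.63 with median centring, 1.04 with quantile normalization and 0.19 with normexp. Within slide 1 the Wnt counts were 14 and 1 and the Fgf counts 14 and 1, with medians of 2.78 and 2.59. The Fzd genes split into 3 higher in ThymusEC, 3 higher in ThyroidEC and 4 not called, and their median of 0.06 turned to -0.46 with median centring, -0.16 with quantile normalization, -0.06 with normexp and -0.11 with the slide as a block. Of the 4 Fgfr kinases, 1 was higher in ThymusEC, 2 in ThyroidEC and 1 was not called. The median over all genes was 0.10. The values of the 2 groups did not overlap for 40 of the 50 genes, and for 76.4% of all genes tested. Groups that lie apart, as described for single genes below, were thus the rule on these arrays. A gene was tested if it was well above background on every array of either group, so genes bright in 1 group alone entered and these counts and medians are a description. Of the 50, 12 were well above background on no ThyroidEC array. With these 12 at the lower bound that their ThyroidEC arrays allow, a calculation added after the data were seen, the median was 1.51 for the Wnt and 1.27 for the Fgf genes. Among the 30 genes whose probe was well above background on all 6 arrays, 13 were higher in ThymusEC and 6 in ThyroidEC, where 28.5% and 36.4% of all such genes were. In that smaller set the Wnt genes gave 6 and 0 of 8 with a median of 0.92, the Fzd genes 2 and 3 of 9 with -0.19, and the Fgf genes 3 and 1 of 7 with 0.17.

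The choice of zero and of background matters for the small and the dim differences. Against the 75th percentile, median centring moved all genes by -0.52 and quantile normalization moved them by a median of -0.18. Of all calls, 56.2% were higher in ThymusEC, against 48.0% with quantile normalization and 35.9% with median centring. The members' counts were then 24 and 11, and 26 and 14. With normexp background correction, which lifts dim spots by an offset before the log, 19 members were called higher in ThymusEC and 6 in ThyroidEC. Its differences were smaller for dim genes, and it ended 12 calls, which are named with their genes. The calls of 22 of the 37 called genes held under every alternative that gave them a value.

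**Figure D1:**
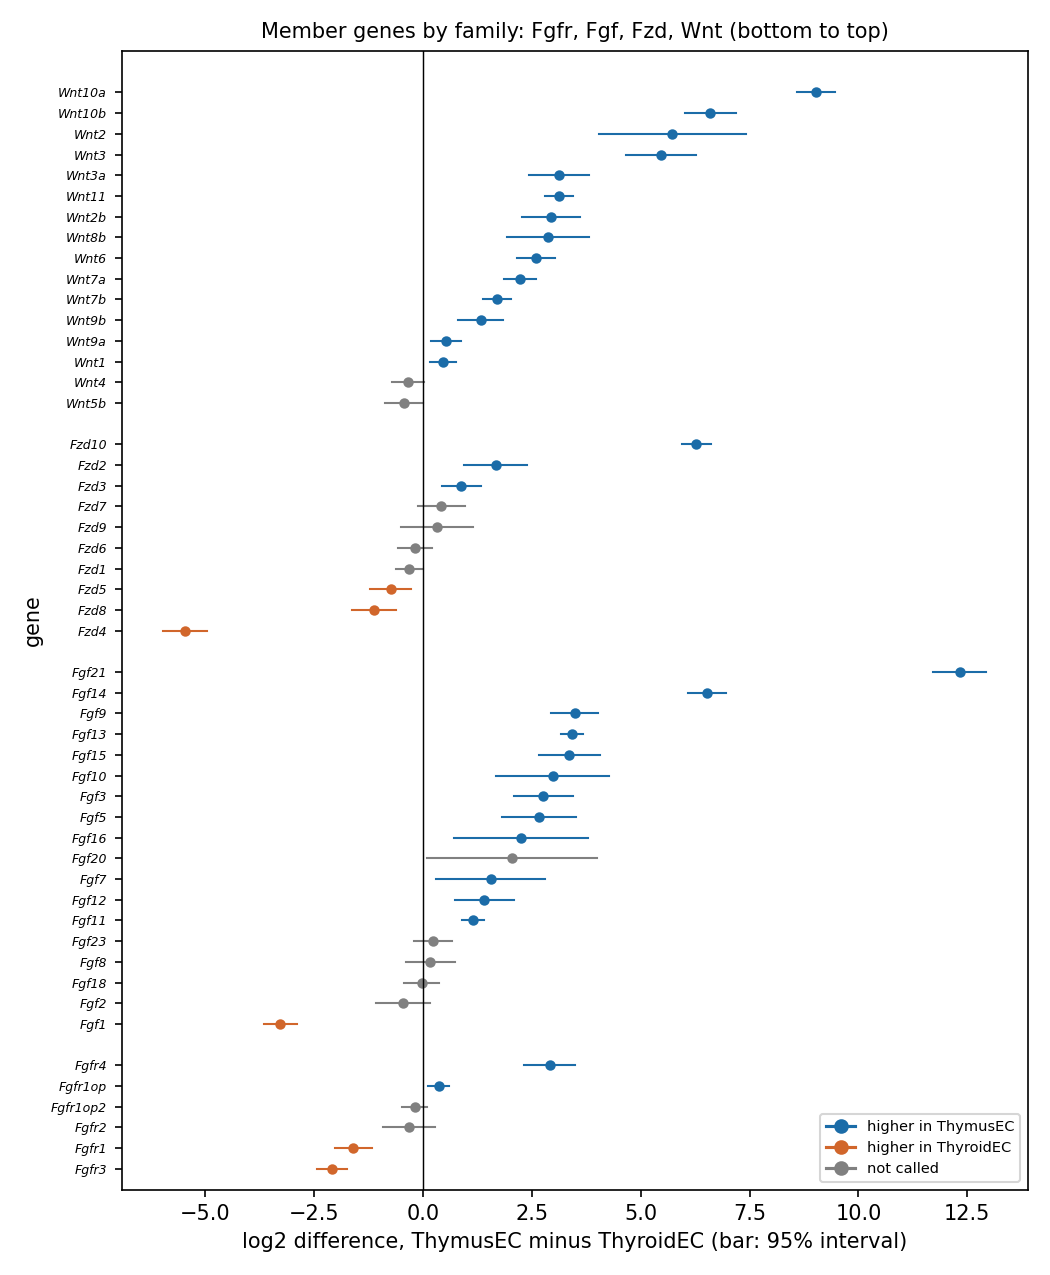
Log2 differences (ThymusEC minus ThyroidEC, x axis) with 95% intervals from limma for the 50 tested genes, in 4 blocks from top to bottom: Wnt, Fzd, Fgf and names beginning with Fgfr. Blue marks genes called higher in ThymusEC, orange higher in ThyroidEC and grey not called. The Wnt and Fgf blocks lie mostly right of 0, up to 12.32 for Fgf21, and the Fzd and Fgfr blocks lie on both sides, down to -5.47 for Fzd4.

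Sequences upstream of the start are shown for 5 genes on which the results turn: the Fgf, Wnt and Fzd genes with the largest difference towards ThymusEC that the promoter table holds (Fgf21, Wnt10b and Fzd10), Wnt11 as the Wnt gene of largest difference measured on all 6 arrays, and Fzd4 as the largest difference towards ThyroidEC. The table, from RefSeq on the GRCm38.p6 build, held 40 of the 56 names. Each line gives the 250 bases before the annotated start, 5′ to 3′ on the gene's strand, with any match to TATAAA (the TATA box) or TCAAAG (a form of the TCF/LEF site) on either strand in capitals. Fgf21 lies at chr7:45615491-45615740 on the minus strand, Wnt10b at chr15:98778151-98778400 on the minus strand, Wnt11 at chr7:98834862-98835111 on the plus strand, Fzd10 at chr5:128600856-128601105 on the plus strand and Fzd4 at chr7:89404116-89404365 on the plus strand.
Fgf21: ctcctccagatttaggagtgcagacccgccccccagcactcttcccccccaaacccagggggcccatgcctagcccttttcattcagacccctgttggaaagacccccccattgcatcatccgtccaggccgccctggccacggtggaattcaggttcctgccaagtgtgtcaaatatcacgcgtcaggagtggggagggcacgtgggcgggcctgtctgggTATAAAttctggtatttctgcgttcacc
Wnt10b: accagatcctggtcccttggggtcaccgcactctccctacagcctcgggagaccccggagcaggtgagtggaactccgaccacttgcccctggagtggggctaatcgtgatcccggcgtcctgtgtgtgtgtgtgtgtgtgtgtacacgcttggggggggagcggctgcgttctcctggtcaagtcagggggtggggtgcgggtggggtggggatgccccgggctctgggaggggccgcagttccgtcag
Wnt11: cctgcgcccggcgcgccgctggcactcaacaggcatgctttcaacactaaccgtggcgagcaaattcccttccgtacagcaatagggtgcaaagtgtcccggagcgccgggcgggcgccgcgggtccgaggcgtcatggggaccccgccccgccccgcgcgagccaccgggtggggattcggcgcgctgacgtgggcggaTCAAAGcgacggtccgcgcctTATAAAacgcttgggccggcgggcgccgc
Fzd10: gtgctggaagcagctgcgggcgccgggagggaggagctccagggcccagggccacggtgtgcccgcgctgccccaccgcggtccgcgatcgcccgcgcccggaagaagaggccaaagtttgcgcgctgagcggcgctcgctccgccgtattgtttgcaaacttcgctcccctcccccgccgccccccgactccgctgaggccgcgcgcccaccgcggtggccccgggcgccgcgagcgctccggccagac
Fzd4: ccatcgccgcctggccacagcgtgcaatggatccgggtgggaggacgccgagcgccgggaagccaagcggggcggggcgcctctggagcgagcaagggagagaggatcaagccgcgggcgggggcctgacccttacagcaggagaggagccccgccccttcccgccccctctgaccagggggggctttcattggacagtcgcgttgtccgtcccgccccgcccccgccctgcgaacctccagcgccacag
TATAAA began 28 bases before the start of Fgf21 and 29 before that of Wnt11, and TCAAAG began 50 bases before the start of Wnt11, all on the gene's own strand. Neither motif overlapped the other. The windows of Wnt10b, Fzd10 and Fzd4 held neither set of letters. Of all 32817 windows of this length in the table, 12.4% held TATAAA and 13.8% TCAAAG, against 3 of 51 windows (5.88%) and 6 of 51 (11.8%) of the genes described here. The share of G and C was 59.6% for Fgf21 and 66.8% for Wnt10b, 70.8% for Wnt11, 76.4% for Fzd10 and 72.8% for Fzd4, where the median was 66.8% over the 51 windows and 52.4% over all windows. A match is a description of the letters and not evidence of a site in use.

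The largest difference among the Wnt ligands was that of Wnt10a, known from hair follicles and teeth. Its probe (chr1:74737266-74737325, in mm8, the build of the array files, as for all probes here) read 3.24, 3.12 and 3.24 in ThymusEC, against -5.82, -6.17 and -5.49 in ThyroidEC. The 3 ThymusEC arrays lay close together and far above all ThyroidEC arrays, of which 2 were well above background. The difference was 9.02 (limma adjusted p = 3.14e-07), the same within slide 1, and 6.41 with normexp.

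Wnt10b, the closest relative of Wnt10a, read -1.50, -1.39 and -1.41 in ThymusEC, against -7.94, -7.58 and -8.58 in ThyroidEC. No ThyroidEC array was well above background, and ThymusEC was at least 24.8-fold higher (limma adjusted p = 1.63e-06). Here and below, "at least" sets the ThymusEC mean against a raised ThyroidEC mean. In it each array counts as the higher of its own value and the lowest signal well above background on that array. The p-value printed beside such a bound is that of the fitted difference, which uses the dim values as read. The bound itself was not tested.

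Wnt2, known from lung and liver vessels, read -1.63, -1.87 and -1.71 in ThymusEC, against -8.41, -5.68 and -8.31 in ThyroidEC. ThyroidEC replicate 2 stood above the other ThyroidEC arrays, all of them below the flag, and ThymusEC was at least 20.1-fold higher (limma adjusted p = 3.49e-04). Its fitted difference was 5.73, or 6.62 without ThyroidEC replicate 2 and 6.67 within slide 1. Wnt3, an activator of the β-catenin branch, read -2.29, -2.37 and -2.15 in ThymusEC, against -7.16, -7.51 and -8.52 in ThyroidEC. It was at least 13.9-fold higher in ThymusEC (limma adjusted p = 1.23e-05), and its second probe, also below the flag on every ThyroidEC array, lay on the same side.

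Wnt3a, Wnt2b and Wnt8b were dimmer and also below the flag on every ThyroidEC array. Wnt3a, the ligand most used to switch on β-catenin signalling in culture, read -5.18, -5.17 and -5.07 in ThymusEC, against -8.48, -7.59 and -8.74 in ThyroidEC. Wnt8b, known from the forebrain, read -4.85, -4.69 and -4.79 in ThymusEC, against -8.53, -7.56 and -6.85 in ThyroidEC. The groups did not overlap in either, but the ThymusEC levels lay close to the limit of detection, and the bounds were small: at least 1.9-fold for Wnt3a, 1.61-fold for Wnt2b and 2.45-fold for Wnt8b, with limma adjusted p of 8.55e-05, 9.74e-05 and 5.79e-04. With normexp none of these 3 calls held, at adjusted p of 0.268, 0.368 and 0.0658.

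Wnt11, Wnt6, Wnt7b and Wnt9b were well above background on all 6 arrays. Wnt11, a ligand known for β-catenin-independent signalling, read -0.92, -0.72 and -0.65 in ThymusEC, against -3.87, -4.04 and -3.74 in ThyroidEC. Its groups lay apart, with a difference of 3.12 (limma adjusted p = 2.61e-06) and 3.10 within slide 1. Wnt6, which lies next to Wnt10a on chromosome 1, read -0.61, -0.61 and -0.61 in ThymusEC, against -3.08, -2.92 and -3.58 in ThyroidEC. The difference was 2.59 (limma adjusted p = 2.23e-05), and 4.34 by its second probe. Both Wnt11 and Wnt6 had tight ThymusEC values. Wnt7b, known from lung and skin epithelium, read -2.15, -2.10 and -2.37 in ThymusEC, against -3.82, -3.79 and -4.07 in ThyroidEC, a difference of 1.69 (limma adjusted p = 3.94e-05). Wnt7a, its relative, read -3.86, -4.22 and -4.03 in ThymusEC, against -6.26, -6.48 and -6.06 in ThyroidEC. Its groups lay apart, with a difference of 2.23 (limma adjusted p = 2.16e-05). It had 1 ThyroidEC array above background and differed by 0.41 with normexp (adjusted p = 0.0543). Wnt9b, needed in kidney tubules, differed by 1.32 (limma adjusted p = 0.00138), by 0.40 with normexp (adjusted p = 0.0613) and by 0.35 with quantile normalization (adjusted p = 0.171).

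Wnt9a and Wnt1 were called at differences that the scaling alone can take away. Wnt9a, known from joints, read -2.40, -2.48 and -2.23 in ThymusEC, against -3.08, -2.67 and -2.93 in ThyroidEC. Its difference of 0.52 (limma adjusted p = 0.0158) was 0.71 within slide 1, 0.03 with quantile normalization (adjusted p = 0.823), 0.35 with normexp (adjusted p = 0.104) and 0.00 with median centring (adjusted p = 0.998), and it was 0.45 without ThymusEC replicate 3 (adjusted p = 0.0609). Wnt1, known from the midbrain, read -4.39, -4.36 and -4.27 in ThymusEC, against -4.99, -4.70 and -4.71 in ThyroidEC. Its difference of 0.46 (limma adjusted p = 0.0135) was 0.65 within slide 1, 0.05 with normexp (adjusted p = 0.821), -0.06 with median centring, -0.57 with quantile normalization (adjusted p = 0.0024) and 0.42 without ThymusEC replicate 3 (adjusted p = 0.0533).

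Wnt4 and Wnt5b, the Wnt genes that were tested and not called, have both been reported to act on Foxn1 in thymic epithelium. Wnt4 read 0.14, 0.39 and 0.24 in ThymusEC, against 0.32, 0.75 and 0.76 in ThyroidEC. Its groups overlapped, and the difference was -0.35 (limma adjusted p = 0.0848, 95% interval -0.72 to 0.02). Wnt5b read -3.02, -2.91 and -2.86 in ThymusEC, against -2.50, -2.16 and -2.81 in ThyroidEC. Its groups lay close together without overlap, with a difference of -0.44 (limma adjusted p = 0.0634, interval -0.87 to -0.01). Calls towards ThyroidEC appeared when 1 array was left out: Wnt4 was at -0.49 without ThyroidEC replicate 1 (adjusted p = 0.0137), and Wnt5b at -0.60 without ThyroidEC replicate 3 (adjusted p = 0.0118). Both were called higher in ThyroidEC with median centring, at -0.87 and -0.96, and Wnt5b also with quantile normalization and within slide 1 (adjusted p = 0.0338). A second probe of Wnt5b differed by -1.12 (adjusted p over all probes = 0.00747) with 1 ThymusEC array above background.

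**Figure D2:**
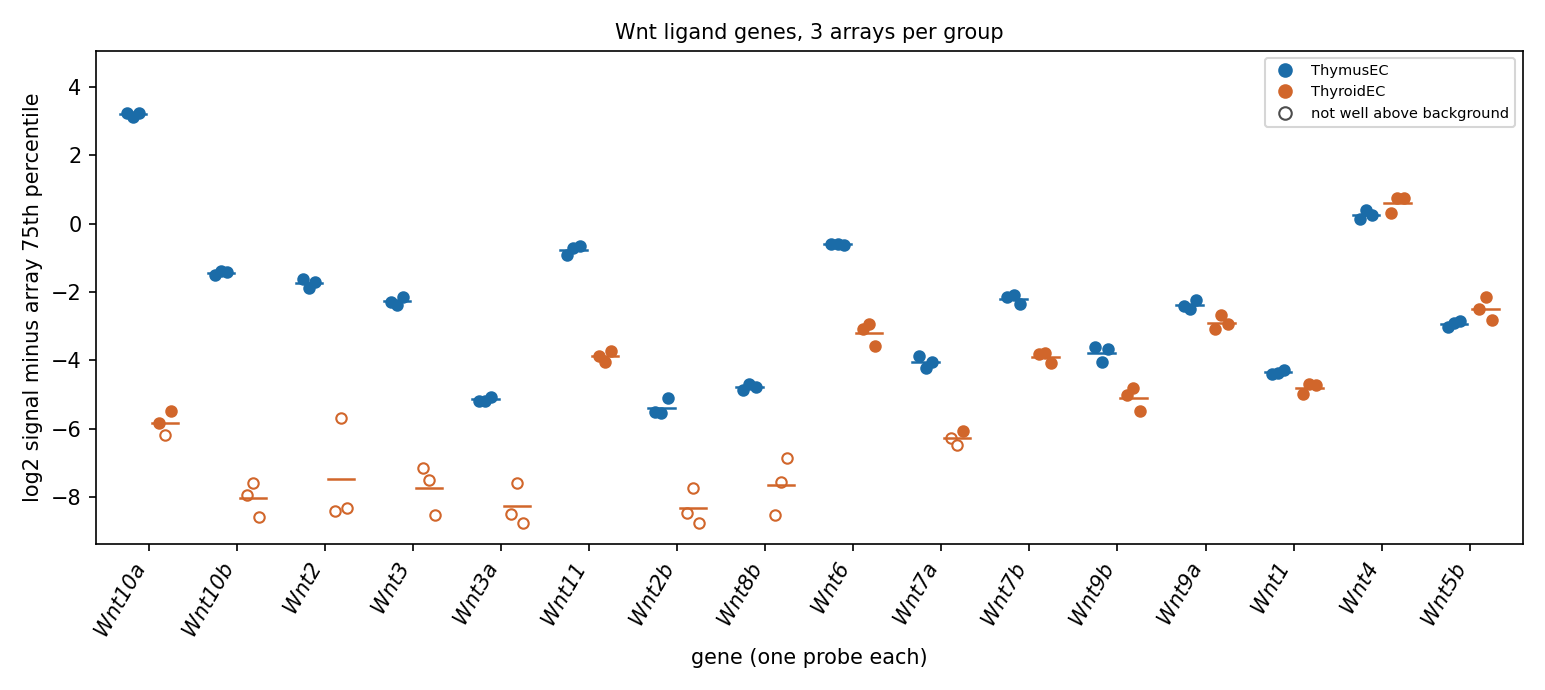
Levels of the 16 tested Wnt genes on each array (log2 signal minus the array's 75th percentile, y axis), ordered by difference, with ThymusEC in blue left of ThyroidEC in orange and a bar at each group's mean. Open circles mark probes not well above background on that array. Wnt10a stands at 3.12 to 3.24 in ThymusEC and -6.17 to -5.49 in ThyroidEC, and Wnt4 and Wnt5b are the genes in which ThyroidEC has the higher mean.

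Some Wnt genes sit side by side in the genome in pairs. By gene order in the RefSeq table, Wnt6 and Wnt10a are neighbours on chromosome 1, Wnt3a and Wnt9a as well as Wnt9b and Wnt3 on chromosome 11, and Wnt10b and Wnt1 on chromosome 15. Wnt10a differed by 9.02 beside 2.59 for Wnt6. In the other pairs Wnt3a, Wnt3 and Wnt10b were below the flag on every ThyroidEC array, and ThymusEC was at least 1.9-fold, 13.9-fold and 24.8-fold higher, beside differences of 0.52 for Wnt9a, 1.32 for Wnt9b and 0.46 for Wnt1. All 8 genes were called higher in ThymusEC, with the limits given for Wnt1, Wnt9a, Wnt9b and Wnt3a above. So were 14 of all 16 Wnt genes tested and 39.2% of all genes tested, so the count is close to that of the family.

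The Fzd receptors were not shifted as a family. Fzd10 stood out towards ThymusEC and Fzd4 towards ThyroidEC. Fzd10 (chr5:128917688-128917747) read 0.05, 0.05 and 0.01 in ThymusEC, against -6.44, -6.00 and -6.28 in ThyroidEC. The ThymusEC arrays lay close together and the ThyroidEC arrays lay at the limit of detection, with 1 of 3 above background. The difference was 6.28 (limma adjusted p = 3.65e-07). Its second probe, well above background on no ThyroidEC array, lay on the same side.

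Fzd4, which binds Norrin as well as Wnt proteins and is known for its role in blood vessels, read -1.41, -1.42 and -1.47 in ThymusEC, against 4.31, 4.26 and 3.55 in ThyroidEC at chr7:89284160-89284219. All 6 arrays were above background and the groups lay far apart, with ThyroidEC replicate 3 lowest in its group. Fzd4 was 44.3-fold higher in ThyroidEC, a difference of -5.47 (limma adjusted p = 1.92e-06), or -5.74 within slide 1. The 13 endothelial genes moved the same way, with a median difference of -7.71, and ThyroidEC replicate 3 was also the lowest in its group for their mean level (5.96, against 6.48 and 6.49 in replicates 1 and 2). In ThymusEC the order differed, with replicate 3 highest for their mean level (-0.46, against -0.71 and -0.71) and lowest for Fzd4. The part of the endothelial genes in the result was not tested.

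Fzd2 read 1.17, 1.65 and 0.53 in ThymusEC, against -0.83, -0.57 and -0.26 in ThyroidEC. It varied more between ThymusEC arrays than the other Fzd genes did, yet every ThymusEC array lay above every ThyroidEC array, and the difference was 1.67 (limma adjusted p = 0.00226). Its relatives of the same branch, Fzd1 and Fzd7, were not called. Fzd1 read 0.93, 0.87 and 0.85 in ThymusEC, against 1.00, 1.21 and 1.37 in ThyroidEC, a difference of -0.31 (limma adjusted p = 0.0622, interval -0.62 to -0.01) that was called at -0.41 without ThyroidEC replicate 1 (adjusted p = 0.0193). Fzd7 read 0.04, 0.09 and 0.02 in ThymusEC, against -0.53, -0.72 and 0.14 in ThyroidEC, with ThyroidEC replicate 3 above all ThymusEC arrays and the other ThyroidEC arrays below them. Its difference was 0.42 (limma adjusted p = 0.138), and it was called at 0.67 without ThyroidEC replicate 3 (adjusted p = 0.00313), at 0.58 within slide 1 (adjusted p = 0.00937) and by its second probe, at 0.98.

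Fzd5 and Fzd8, a pair of close relatives that work with Lrp5 and Lrp6, were higher in ThyroidEC. Fzd8 read -3.39, -2.92 and -3.54 in ThymusEC, against -1.87, -2.19 and -2.42 in ThyroidEC. Its groups did not overlap, at a difference of -1.12 (limma adjusted p = 0.00283). Fzd5 read -0.36, -0.56 and -0.50 in ThymusEC, against -0.12, 0.59 and 0.36 in ThyroidEC. ThyroidEC replicate 1, the ThyroidEC array on slide 1, lay nearest to ThymusEC, and the difference of -0.75 (limma adjusted p = 0.0116) was -0.36 within slide 1 (adjusted p = 0.0689) and in the slide-block fit (adjusted p = 0.112).

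Fzd3 and Fzd6 are known for planar polarity of epithelia and hair. Fzd3 read -2.59, -2.58 and -3.15 in ThymusEC, against -3.66, -3.79 and -3.50 in ThyroidEC, a difference of 0.88 (limma adjusted p = 0.00485). It was not called with quantile normalization, median centring or normexp, at 0.24, 0.36 and 0.31. Fzd6 read 0.41, 0.24 and 0.20 in ThymusEC, against 0.38, 0.28 and 0.79 in ThyroidEC, with overlapping groups and a difference of -0.19 (limma adjusted p = 0.317). Fzd9 read -4.92, -4.39 and -4.05 in ThymusEC, against -4.16, -4.81 and -5.34 in ThyroidEC, also overlapping, at 0.32 (limma adjusted p = 0.439), or -0.29 within slide 1.

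The Fgf genes were spread over 7 subfamilies. The calls towards ThymusEC came from the endocrine (2 of 3 tested), intracellular (4 of 4), Fgf9 (2 of 3), Fgf7 (3 of 3) and Fgf4 (1 of 1) subfamilies. Over the family 12 of 18 genes were called so, where 39.2% of all genes tested were. Of the 18, 6 were well above background on no ThyroidEC array and entered through ThymusEC alone. The subfamilies are too small for a pattern to be read from these counts. The Fgf8 subfamily had 0 calls among 2 tested genes by limma, also at an unadjusted p under 0.05, and the Fgf1 subfamily had 1 call of 2, towards ThyroidEC.

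Fgf21, a fasting hormone of the liver, was the largest difference of all 50 genes. Its probe (chr7:45481977-45482036) read 4.13, 4.13 and 4.27 in ThymusEC, against -8.56, -7.56 and -8.32 in ThyroidEC. The ThymusEC arrays lay close together and no ThyroidEC array was well above background. ThymusEC was at least 1214-fold higher (limma adjusted p = 3.43e-07), and a second probe, also below the flag on every ThyroidEC array, lay on the same side. Fgf15, the bile acid signal of the gut, read -3.29, -3.28 and -3.25 in ThymusEC, against -6.19, -7.33 and -6.38 in ThyroidEC. ThymusEC was at least 6.6-fold higher (limma adjusted p = 6.16e-05). Fgf23, the phosphate hormone of bone, read -5.25, -5.06 and -5.29 in ThymusEC, against -5.06, -5.70 and -5.49 in ThyroidEC. Its groups overlapped at the limit of detection, with a difference of 0.22 (limma adjusted p = 0.324), which was -1.02 with quantile normalization (adjusted p = 0.00273) and -0.14 within slide 1, and 0.39 without ThyroidEC replicate 1 (adjusted p = 0.0434).

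The endocrine Fgf proteins need Klb or Kl, which encode β-Klotho and Klotho. Klb was not tested: 1 of its probes was well above background on 2 ThymusEC arrays and 0 ThyroidEC arrays, and the other on none. Kl read -3.34, -2.88 and -2.45 in ThymusEC, against -1.62, 0.65 and -1.52 in ThyroidEC. It was called higher in ThyroidEC by a difference of -2.06 (limma adjusted p = 0.0218), which rested in part on ThyroidEC replicate 2, far above the other ThyroidEC arrays. Without that replicate the difference was -1.32 (adjusted p = 0.00564). The slide-block fit gave -1.27 (adjusted p = 0.238), and the call also ended at -1.83 without ThymusEC replicate 1 (adjusted p = 0.0701) and -2.06 without ThymusEC replicate 2 (adjusted p = 0.0565).

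The 4 intracellular genes, whose products bind sodium channels and other partners inside the cell, were all called higher in ThymusEC. Fgf14 read -0.30, -0.11 and 0.06 in ThymusEC, against -6.31, -6.68 and -6.90 in ThyroidEC. No ThyroidEC array was well above background, and ThymusEC was at least 62-fold higher (limma adjusted p = 6.56e-07). The other 2 probes of Fgf14 lay on the same side, with 0 and 1 ThyroidEC arrays above background.

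Fgf13 read -2.15, -2.27 and -2.17 in ThymusEC, against -5.52, -5.62 and -5.73 in ThyroidEC. With 2 ThyroidEC arrays above background the groups lay apart, and the difference was 3.42 (limma adjusted p = 9.04e-07), while a probe well above background on all 6 arrays gave 1.09. Fgf12 read -3.24, -3.47 and -3.50 in ThymusEC, against -4.63, -4.34 and -5.45 in ThyroidEC. Its difference of 1.41 (limma adjusted p = 0.00382) was 2.78 by a second probe, 0.53 with quantile normalization (adjusted p = 0.118) and 1.23 in the slide-block fit (adjusted p = 0.0506). Fgf11 read -2.19, -2.36 and -2.30 in ThymusEC, against -3.37, -3.49 and -3.42 in ThyroidEC, a difference of 1.14 (limma adjusted p = 8.15e-05), whereas its second probe gave -0.12 (adjusted p over all probes = 0.56).

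Fgf9, a growth factor of the Fgf9, Fgf16 and Fgf20 subfamily that is known from lung and gonad, read -1.31, -1.04 and -1.47 in ThymusEC, against -4.88, -4.31 and -5.08 in ThyroidEC. It was measured on all 6 arrays, and every ThymusEC array lay well above every ThyroidEC array, at a difference of 3.49 (limma adjusted p = 1.51e-05). Fgf16, known from the heart, was at least 1.53-fold higher in ThymusEC (limma adjusted p = 0.0176). That call ended with normexp (adjusted p = 0.465), with quantile normalization (adjusted p = 0.205) and without ThymusEC replicate 2, ThymusEC replicate 3 or ThyroidEC replicate 1 (adjusted p of 0.0525, 0.0566 and 0.0621). Fgf20 read -4.80, -4.80 and -4.82 in ThymusEC, against -8.30, -4.84 and -7.41 in ThyroidEC. ThyroidEC replicate 2 sat at the level of the ThymusEC arrays and the other ThyroidEC arrays below background, so that the difference of 2.04 was not called (limma adjusted p = 0.0601). It was called at 3.05 without ThyroidEC replicate 2 (adjusted p = 1.51e-04) and at 3.49 with the slide as a block (adjusted p = 0.0212).

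The Fgf7 subfamily holds the mesenchymal ligands of the epithelial form of Fgfr2. Fgf10 read -3.71, -4.00 and -3.53 in ThymusEC, against -6.05, -6.07 and -8.06 in ThyroidEC, with 1 ThyroidEC array above background and ThyroidEC replicate 3 lowest. The difference was 2.98 (limma adjusted p = 0.00236), and 2.31 without ThyroidEC replicate 3 or 2.30 within slide 1. Fgf7, also called keratinocyte growth factor, read -4.60, -5.04 and -4.67 in ThymusEC, against -5.68, -5.66 and -7.62 in ThyroidEC. It had 1 ThyroidEC array well above background. Its groups did not overlap, but the difference of 1.55 (limma adjusted p = 0.0347) was 0.90 without ThyroidEC replicate 3, and the call ended without any 1 of the ThymusEC arrays (adjusted p of 0.0606 to 0.0921), with the slide as a block (0.91, adjusted p = 0.316), with median centring (adjusted p = 0.113), with quantile normalization (adjusted p = 0.618) and with normexp (adjusted p = 0.386). Fgf3, known from the inner ear, and Fgf5, which ends hair growth, were below the flag on all ThyroidEC arrays. They were at least 1.47-fold and 1.4-fold higher in ThymusEC. Their fitted differences, which use the dim values as read, were 2.76 and 2.65 (limma adjusted p of 1.47e-04 and 5.09e-04). Neither was called with normexp (adjusted p of 0.346 and 0.529). The genes of fibroblasts, cells that are known to make Fgf7 and Fgf10, had group ranges of 1.82 to 2.20 in ThymusEC and 0.95 to 1.92 in ThyroidEC. ThyroidEC replicate 3, the lowest array for both Fgf7 and Fgf10, was also the lowest for these genes. Its Fgf7 and Fgf10 values lay under the lowest signal well above background on that array (-6.57), so they are not measured levels. Within ThymusEC the order differed: the fibroblast genes were lowest in replicate 1 (1.82), and Fgf7 and Fgf10 in replicate 2. The part of the fibroblast genes in the result was not tested.

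Fgf8 and Fgf18 differed little. Fgf8, which patterns the pharyngeal pouches that give rise to the thymus, read -3.24, -3.30 and -3.37 in ThymusEC, against -3.98, -3.37 and -3.06 in ThyroidEC, a difference of 0.17 (limma adjusted p = 0.544, interval -0.39 to 0.72). The ThyroidEC arrays lay on both sides of ThymusEC, and the difference was 0.68 with the slide as a block (adjusted p = 0.0174) and -0.54 with quantile normalization (adjusted p = 0.0419). Fgf18, known from bone and cartilage, read -2.00, -2.35 and -2.04 in ThymusEC, against -2.31, -1.81 and -2.16 in ThyroidEC, with a difference of -0.03 (limma adjusted p = 0.869, interval -0.44 to 0.38), or 0.18 within slide 1.

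Fgf1 and Fgf2 lack a signal peptide and leave the cell by another route. Fgf1 read -3.04, -3.10 and -3.06 in ThymusEC, against -0.01, 0.14 and 0.53 in ThyroidEC. All ThyroidEC arrays lay far above all ThymusEC arrays, and the gene was 9.73-fold higher in ThyroidEC, a difference of -3.28 (limma adjusted p = 4.14e-06), with -2.82 by its second probe. Fgf2 read -4.22, -4.08 and -3.55 in ThymusEC, against -3.94, -3.41 and -3.14 in ThyroidEC, with overlapping groups and a difference of -0.45 (limma adjusted p = 0.16), which was -0.01 within slide 1 and -0.67 without ThyroidEC replicate 1 (adjusted p = 0.0469). Its second probe, above background on 1 ThymusEC and 3 ThyroidEC arrays, differed by -2.77 (adjusted p over all probes = 1.55e-04), and the median over both probes was called at -1.61 (adjusted p = 0.00118).

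**Figure D3:**
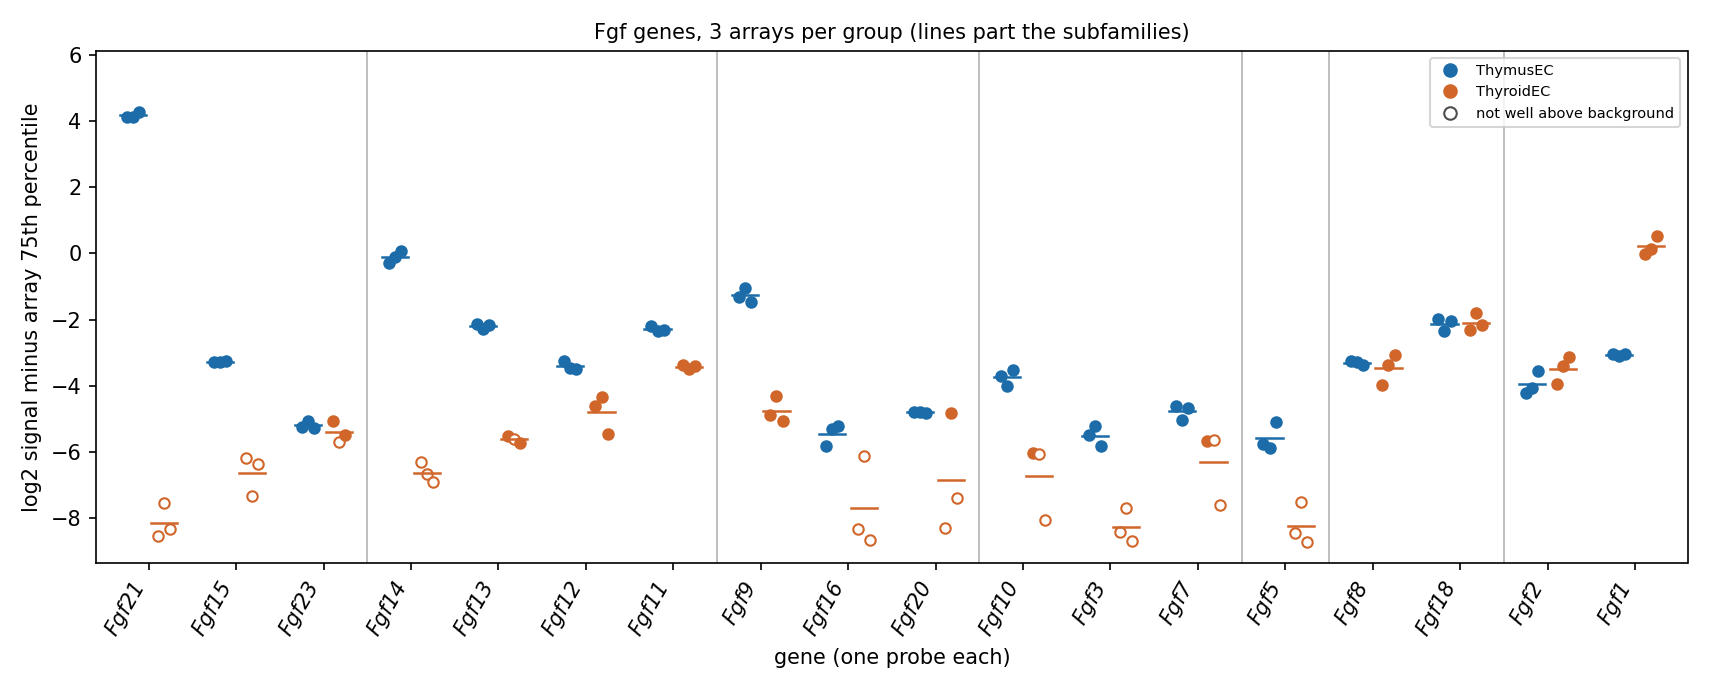
Levels of the 18 tested Fgf genes on each array (log2 signal minus the array's 75th percentile, y axis), with ThymusEC in blue left of ThyroidEC in orange, a bar at each group's mean and open circles where the probe was not well above background. Vertical lines part the subfamilies, from the endocrine genes at the left to Fgf2 and Fgf1 at the right. Fgf21 stands at 4.13 to 4.27 in ThymusEC and -8.56 to -7.56 in ThyroidEC, and Fgf1 is the gene called higher in ThyroidEC.

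Among the Fgf receptors, Fgfr3 and Fgfr1 were higher in ThyroidEC and Fgfr4 higher in ThymusEC. Fgfr3, a brake on bone growth, read -1.75, -1.68 and -1.99 in ThymusEC, against 0.51, 0.17 and 0.17 in ThyroidEC. The groups lay apart at a difference of -2.09 (limma adjusted p = 2.30e-05), and its other probes gave -2.20 and -1.91. Fgfr1, the receptor known mainly from mesenchyme, read -3.52, -3.10 and -3.69 in ThymusEC, against -1.75, -1.99 and -1.74 in ThyroidEC, a difference of -1.61 (limma adjusted p = 2.05e-04). Its 4 probes differed by -1.61 to -2.47, all in the same direction.

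Fgfr4, which answers Fgf15 in the liver, read -1.02, -1.04 and -1.38 in ThymusEC, against -3.54, -4.42 and -4.21 in ThyroidEC. Every ThymusEC array lay above every ThyroidEC array, at a difference of 2.91 (limma adjusted p = 5.15e-05), but the other probes gave 1.07 and 0.56, and the median over the 3 probes gave 0.79 (adjusted p = 0.00222). Fgfr2, the receptor of Fgf7 and Fgf10 on epithelium, read 0.58, 0.78 and 0.23 in ThymusEC, against 0.50, 0.72 and 1.34 in ThyroidEC, with overlapping groups and a difference of -0.32 (limma adjusted p = 0.288, interval -0.92 to 0.28). Its difference was 0.03 within slide 1 and was called at -0.84 with median centring (adjusted p = 0.0167), while a probe elsewhere in the gene gave 0.81 (adjusted p over all probes = 0.00288) and the third gave -0.17. Which receptor isoform a probe reads was not tested.

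The names that are not receptors moved little. Fgfr1op, a centrosome protein gene, differed by 0.36 (limma adjusted p = 0.0171), or -0.17 after median centring, and it was not called with the slide as a block (adjusted p = 0.093), at 0.32 without ThymusEC replicate 1 (adjusted p = 0.0769) and 0.36 without ThymusEC replicate 3 (adjusted p = 0.0559). Fgfr1op2 differed by -0.20 (limma adjusted p = 0.18), or -0.72 after median centring (adjusted p = 0.00107). The second probe of Fgfr1op gave 0.47 (limma adjusted p over all probes = 0.105). That of Fgfr1op2 gave -0.54 and was called (limma adjusted p over all probes = 0.00853).

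**Figure D4:**
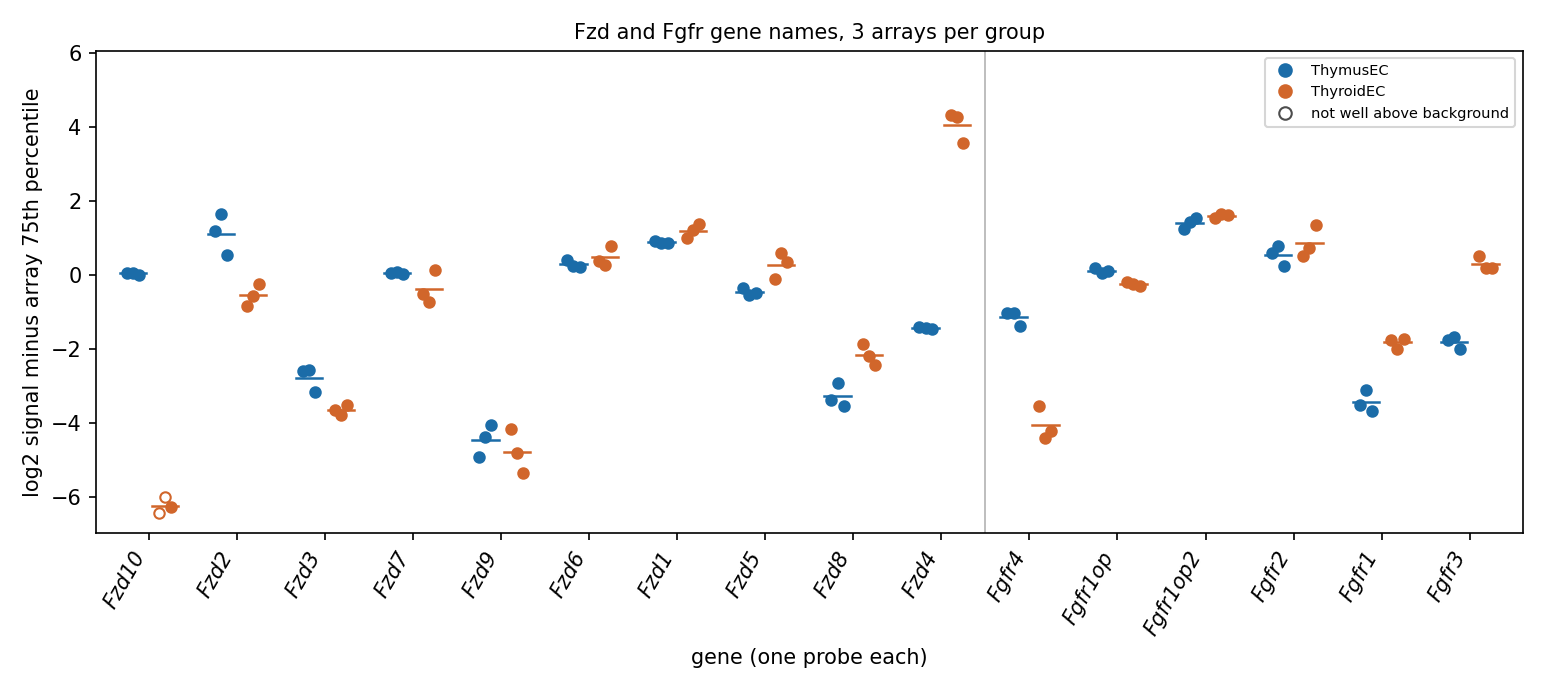
Levels of the 10 Fzd genes (left of the line) and the 6 names beginning with Fgfr (right) on each array, as log2 signal minus the array's 75th percentile, with ThymusEC in blue left of ThyroidEC in orange, a bar at each group's mean and open circles where the probe was not well above background. Fzd10 lies at 0.01 to 0.05 in ThymusEC and -6.44 to -6.00 in ThyroidEC. Fzd4 shows the reverse with -1.47 to -1.41 in ThymusEC and 3.55 to 4.31 in ThyroidEC. The other genes differ by less, from -2.09 for Fgfr3 to 2.91 for Fgfr4.

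Where a gene had several tested probes, they seldom disagreed in direction. Of 23 such genes, 21 had probes that all differed in the same direction, with Fgf11 and Fgfr2 as the exceptions, and 0 had probes called in opposite directions. Some had a probe that was called beside one that was not: Fgf2, Fgf11, Fgfr2, Fzd7, Wnt5b, Fgfr1op and Fgfr1op2.

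The rest of the Wnt pathway was followed with 50 genes of secretion, co-receptors, inhibitors, activators and the cytoplasmic and nuclear chain. Of the 45 tested, 18 were higher in ThymusEC and 14 in ThyroidEC (20 and 13 within slide 1), shares near those of all genes, with a median difference of 0.22 before the shift of -0.52 by median centring. Dkk1, a secreted inhibitor that binds Lrp6, read -0.89, -1.25 and -0.54 in ThymusEC, against -6.07, -6.69 and -6.67 in ThyroidEC. The difference was 5.58 (limma adjusted p = 2.95e-06), with 1 ThyroidEC array above background. Sfrp1, which binds Wnt proteins outside the cell, read 3.21, 3.25 and 2.98 in ThymusEC, against -0.97, -0.97 and -2.17 in ThyroidEC, a difference of 4.52 (limma adjusted p = 2.79e-05). Both inhibitors had groups far apart. Rspo2, an activator that acts through Lgr receptors, was at least 3.15-fold higher in ThymusEC (limma adjusted p = 3.50e-05).

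Nkd1, Prickle1 and Sfrp2 had the largest differences of the list towards ThyroidEC. Nkd1, a feedback inhibitor that binds Dishevelled, read -2.02, -2.12 and -2.05 in ThymusEC, against 2.28, 2.15 and 2.92 in ThyroidEC, a difference of -4.52 (limma adjusted p = 3.69e-06). Its relative Nkd2, looked up after its value was seen, went the other way at 1.74 (limma adjusted p = 1.11e-05). Prickle1, of the planar polarity branch, differed by -4.24 (limma adjusted p = 2.38e-06), and Sfrp2, a relative of Sfrp1, by -3.57 (limma adjusted p = 6.46e-06). Other polarity genes, looked up after their values were seen, were mixed: Vangl1 was at -1.30 (limma adjusted p = 5.14e-05), Celsr1 at 0.90 (limma adjusted p = 1.00e-03) and Vangl2 at 0.11 (limma adjusted p = 0.5). Of the genes that act in Wnt secretion, Porcn, the acyltransferase, was higher in ThyroidEC by a difference of -2.17 (limma adjusted p = 2.17e-05), and so was Wls, the carrier, by -0.57 (limma adjusted p = 0.0105). Wls was not called as the median of its probes (-0.05, adjusted p = 0.749), in slide 1 (adjusted p = 0.0812), in the slide-block fit or with quantile normalization.

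The co-receptors differed from each other. Lrp5 read -0.68, -1.13 and -0.89 in ThymusEC, against 2.11, 1.05 and 0.76 in ThyroidEC, a difference of -2.20 (limma adjusted p = 0.00122), or -3.01 within slide 1. Lrp6 differed by 0.43 (limma adjusted p = 0.0244), and median centring gave -0.09 (adjusted p = 0.51), and it was not called at 0.45 without ThymusEC replicate 1 (adjusted p = 0.0645) and 0.38 without ThymusEC replicate 3 (adjusted p = 0.0873). Axin2, a target and feedback inhibitor of β-catenin signalling, read -1.73, -1.88 and -1.70 in ThymusEC, against -3.09, -3.41 and -3.41 in ThyroidEC. Its groups lay apart, with a difference of 1.54 (limma adjusted p = 5.89e-05). Of the transcription factors, Tcf7 differed by 3.68 (limma adjusted p = 7.71e-06) and Lef1 by 0.26 (limma adjusted p = 0.403), or -0.17 within slide 1. Tcf7 is also strongly expressed by thymocytes, whose genes were higher in ThymusEC in 9 of 11 cases, and their part in the result was not tested. Notum, Dkk4, Wif1, Rspo3 and Rspo4 were not tested.

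The rest of the Fgf pathway was followed with 37 genes, of which 34 were tested: 11 were higher in ThymusEC and 17 in ThyroidEC (11 and 17 within slide 1 too), where 39.2% and 30.6% of all genes tested were. The median difference was -0.47 before the shift of -0.52 by median centring. The largest differences towards ThyroidEC were those of Spry4, Spry1, Etv5 and Spred1. Spry4, a feedback inhibitor that Fgf and other kinase signals are known to induce, read -6.35, -5.28 and -4.71 in ThymusEC, against -0.59, -0.80 and -0.63 in ThyroidEC. ThymusEC replicate 1 was the lowest array and all ThyroidEC arrays lay close together far above, at a difference of -4.77 (limma adjusted p = 4.76e-05). Spry1, its relative, read 0.33, 0.97 and 0.46 in ThymusEC, against 4.09, 3.98 and 3.56 in ThyroidEC, a difference of -3.29 (limma adjusted p = 1.74e-05). Etv5, an Ets factor of the same response, differed by -2.95 (limma adjusted p = 1.37e-05), Spred1 by -2.70 (limma adjusted p = 1.65e-06) and Dusp6, the ERK phosphatase, by -2.14 (limma adjusted p = 1.21e-04). Etv4, the close relative of Etv5, went the other way at 1.89 (limma adjusted p = 5.42e-04). So did 2 feedback inhibitors looked up after their values were seen, Spry2 at 0.70 (limma adjusted p = 0.00177) and Il17rd at 1.07 (limma adjusted p = 7.67e-05). Looked up in the same way, Spred2 lay towards ThyroidEC at -1.33 (limma adjusted p = 8.86e-05) and Etv1 towards ThymusEC at 1.27 (limma adjusted p = 1.43e-04). Endothelial genes moved towards ThyroidEC in 13 of 13 cases beside the genes of this list, and their part in the result was not tested.

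The largest differences towards ThymusEC were those of Sdc1, Hs6st2, Fgfbp1 and Sulf1. Sdc1, a heparan sulfate proteoglycan of epithelia, read 1.78, 1.81 and 1.72 in ThymusEC, against -2.27, -2.12 and -2.50 in ThyroidEC. The arrays of each group lay close together and the groups far apart, at a difference of 4.07 (limma adjusted p = 8.61e-07). Hs6st2, which sulfates heparan sulfate, differed by 3.72 (limma adjusted p = 9.61e-06) with 2 ThyroidEC arrays above background. Fgfbp1, a carrier that frees Fgf proteins from the matrix, differed by 2.78 (limma adjusted p = 1.67e-05) and Sulf1, which removes sulfate groups, by 2.41 (limma adjusted p = 3.06e-04). Other genes that build, carry or trim heparan sulfate, looked up after their values were seen, went both ways: Gpc3 was at 0.99 (limma adjusted p = 8.53e-04) and Hs2st1 at 0.89 (limma adjusted p = 4.83e-04), while Ndst1 was at -1.87 (limma adjusted p = 1.59e-04), Ext2 at -1.56 (limma adjusted p = 3.44e-05), Sulf2 at -1.54 (limma adjusted p = 3.13e-04), Sdc4 at -0.78 (limma adjusted p = 0.00181) and Ext1 at -0.76 (limma adjusted p = 0.00262). Spry3 and Spred3 were not tested.

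**Figure D5:**
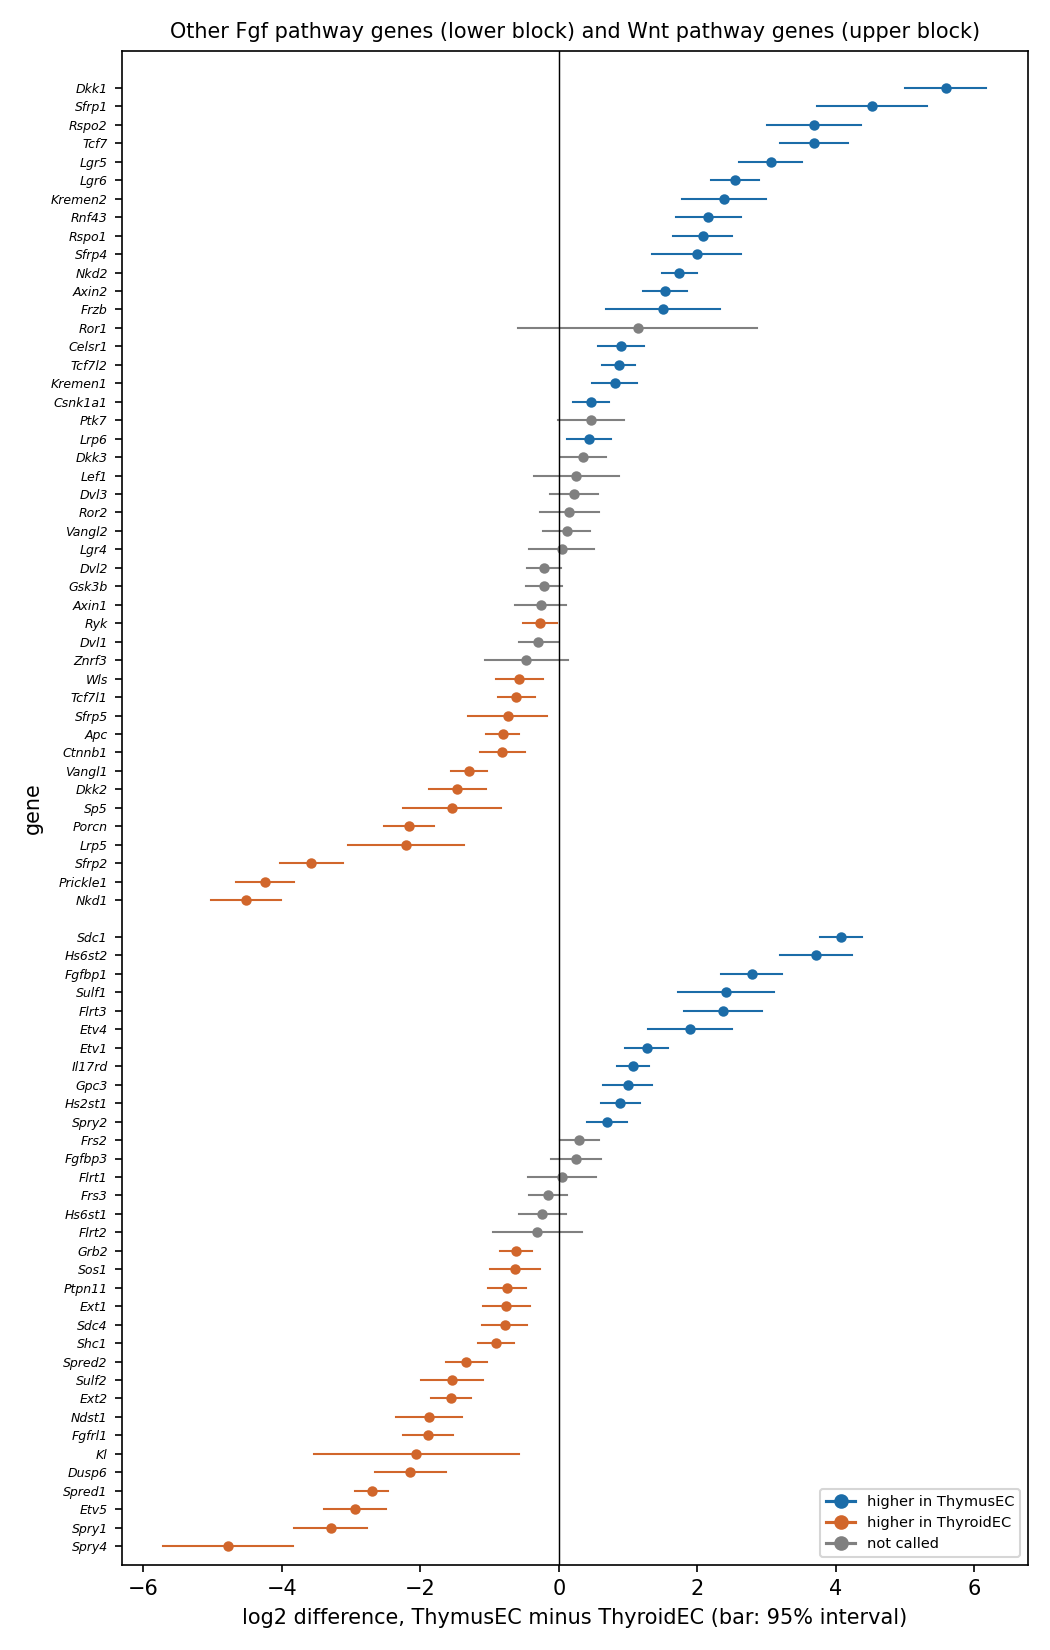
Log2 differences (ThymusEC minus ThyroidEC, x axis) with 95% intervals from limma for the other tested genes of the Wnt pathway (upper block, 45 genes) and of the Fgf pathway (lower block, 34 genes), in blue where called higher in ThymusEC, orange where higher in ThyroidEC and grey where not called. The Wnt block runs from -4.52 for Nkd1 to 5.58 for Dkk1, and the Fgf block from -4.77 for Spry4 to 4.07 for Sdc1.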

How the data were processed

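RNA of sorted cells was labelled with Cy3 and measured on single-colour Agilent arrays, 3 ThymusEC and 3 ThyroidEC. The scanner output deposited here was, per the file headers, made with Agilent Feature Extraction 10.5.1.1. It places probes on mm8 and gives each spot's intensity as a background-subtracted processed signal. The deposited value table holds a linear ratio: each column equalled the processed signal over that array's median (largest log2 gap 5.67e-05). Of 43379 non-control spots per array, 67 to 151 outlier spots were left out, and spots of a probe were averaged on the log2 scale. Tested were probes well above background on every array of a group, and the brightest tested probe on average stood for its gene. Gene names outside the 4 families were updated through a RefSeq table: accessions named 24496 probes, symbols 6234 and unambiguous older symbols 2386, while 8058 probes kept the name in the files.

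The fit used lmFit and eBayes of limma 3.58.1 under R 4.3.3, two-sided and without covariates, over 21392 genes, after the fit was tested on simulated data. p-values measure the spread between 3 arrays per group, whose number limits the precision. Arrays correlated at 0.994 or more within ThymusEC and 0.987 or more within ThyroidEC, and at most 0.780 between the groups. Replicate numbers did not pair the arrays, with correlations of same-numbered deviations of 0.01, -0.07 and -0.05. Array values are printed for all tested receptors and, by rule, for at least the 8 largest differences or lower bounds of each ligand family. Of the pathway lists, the rule names up to 4 genes per direction and 13 fixed genes. Further tested genes of these lists were looked up after their values were seen and are marked so. The members, the lists and this rule were chosen with earlier results of these data known. The alternatives were normexp background correction (offset 50), quantile normalization, median centring, the deposited table, no filter on dim probes or one on all 6 arrays, a gene's median over probes, every probe, the slide as a block, slide 1 alone (its single ThyroidEC array is assumed to vary like the ThymusEC arrays), array weights, a trended and robust variance model, a replicate block and dropping each array in turn. The plots came from matplotlib 3.10.9 under Python 3.11.15.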

Additional observations from a re-analysis of the deposited data

How the results depend on the processing

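Counts are given as higher in ThymusEC and higher in ThyroidEC. Over the genes described here they were 31 and 6, and between 26 and 32, and 6 and 9, when 1 array was left out. Normexp gave 19 and 6 (Wnt 7 and 0), quantile normalization 24 and 11 (Wnt 11 and 2, Fgf 9 and 4), and median centring and the deposited table each 26 and 14 (Wnt 12 and 2, Fgf 11 and 3, Fzd 2 and 5, Fgfr names 1 and 4). The filter on all 6 arrays, which tests fewer genes, gave 14 and 7 of 31 (Wnt 6 and 1, Fgf 4 and 1). The median over probes and every probe each gave 2 Fgf genes and 1 Wnt gene higher in ThyroidEC, and slide 1 alone, trended variances and array weights gave 1 Wnt gene. Fgfr names higher in ThymusEC were 1 with the slide as a block and on slide 1. With the replicate block the counts were 30 and 7, with 2 Fgf genes higher in ThyroidEC and 1 Fgfr name higher in ThymusEC. Leaving out 1 array gave 12 to 14 and 0 to 1 Wnt genes, 10 to 13 and 1 to 2 Fgf genes, 3 to 4 and 3 to 4 Fzd genes, and 1 to 2 and 2 to 2 Fgfr names. All genes gave 8390 and 6547 (7636 to 8390 and 5646 to 6407 without 1 array), 6128 and 10965 with median centring and with the deposited table, and 5014 and 6432 with the filter on all 6 arrays. Among differences called before or after the change, signs turned for Fgf23 (-1.02) and Fgf8 (-0.54) with quantile normalization, for Fgfr1op (-0.17) and Lrp6 (-0.092) with median centring and the deposited table, and for Wnt1 with all 3 (-0.57, -0.063 and -0.063). Differences called in neither also turned, those of Fzd9 (-0.73 with quantile normalization, -0.20 with median centring), Fzd7 (-0.10), Fgf23 (-0.31) and Fgf8 (-0.36, all with median centring) among them. The causes were not tested, apart from the filter, which leaves fewer genes.

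Of the 37 called genes, normexp lost 12, quantile normalization 6, the slide as a block 4 (Fgf7, Fgf12, Fzd5 and Fgfr1op) and slide 1 alone 2, while 8 genes that the reported comparison did not call were called with median centring. Signal over background limits the ligands most: where ThyroidEC was below the flag, only a lower bound is known, and its size follows from the array's own limit. Slide and group overlap in 1 ThyroidEC array alone, so within-slide values rest on that array.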
